A study of Mus musculus with 1073 samples.

Results

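Glycolysis and the response to low oxygen were described through a fixed list of 34 genes. It held glucose and lactate carriers, the glycolytic enzymes with their isozymes, the kinases that inhibit pyruvate dehydrogenase, the oxygen-sensing genes and a few of their targets. Of the 34 genes, 32 were among the 15967 genes of the filtered tables. The other two were seen only in the table of all captured cells: *Eno2*, the neuronal enolase, had 76 counts in 7 of 1073 cells, and *Ddit4*, an inhibitor of growth signalling induced by stress, had 211 counts in 32 cells. Genes were listed by function, with no threshold on their level.

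Single mouse cells were sorted from the yolk sac, captured on a Fluidigm C1 microfluidic chip and sequenced one cell per library, and 926 of 1073 captured cells passed the filter of the authors. Extraembryonic mesoderm was taken as *Flk1*-GFP+ cells at E7.25 (neural plate, 73 and 74 cells in 2 sequencing lanes) and E7.75 (early headfold, 140 cells) from *Flk1*-GFP/+ embryos, in which GFP is expressed from the *Flk1* locus, and was dissociated with trypsin. The *Flk1*-GFP line was also kept on a C57BL/6 background. All later cells came from C57BL/6 embryos and were dissociated with collagenase and dispase. Genotype, enzyme and stage therefore cannot be told apart in any comparison with mesoderm. Haematopoietic progenitor/colony forming cells (HPC) were TER119- CDH5+ CD41+ at E8.25 (73 cells) and E8.5 (89), and TER119- CDH5- CD45+ CD41low at E9.5 (46) and E10.5 (87). Primitive erythrocytes (EryP) were TER119+ CD41- CDH5- at E8.5 (66) and also CD45- at E10.5 (3). Megakaryocytes (Mk) were TER119- CDH5- CD41+ at E8.5 (37) and TER119- CDH5- CD45- CD41high at E10.5 (73). Macrophages (Mac) were TER119- CDH5- CD41- CD45+ at E10.5 (25). Endothelium (Endo) was TER119- CD41- CDH5+ at E8.5 (79) and also CD45- at E10.5 (61).

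Glycolysis splits glucose to pyruvate with a small yield of ATP that needs no oxygen. Glucose enters through carriers of the SLC2A family, is trapped in the cell by a hexokinase, is committed to the pathway by phosphofructokinase and leaves as pyruvate or, through lactate dehydrogenase and the monocarboxylate carriers, as lactate. When oxygen is scarce, the prolyl hydroxylases (EGLN) no longer mark the HIF α subunits for destruction by VHL. HIF1A or EPAS1 then pairs with ARNT and binds DNA at a short core sequence in many genes of this list. The mid-gestation embryo develops in low oxygen before the circulation is fully established, and red cells, which lose their mitochondria as they mature in the adult, come to live on glycolysis alone.

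Levels were normalised CPM, which are counts scaled by the authors with 1 factor per cell, so each value is relative to the other RNA of that cell. Total counts per cell ran from 483830 to 5943204, with a median of 1887350. The labels name no embryo or pool, and apart from mesoderm, which came from 2 sequencing lanes at each stage, each population came from 1 lane. Each population was therefore treated as 1 sample: no test, standard error or p-value is given, spread is the spread between cells, and intervals on shares of cells are exact binomial intervals for counting error only. Populations up to E8.5 other than E7.75 mesoderm shared one flow cell and all the rest another, so each population was set against the mesoderm of its own flow cell. These comparisons share their mesoderm cells.

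The endothelial, erythroid, Mk and Mac gates were checked against their markers, and E8.5 Mk stood apart. The 7 endothelial markers were found on average in 100% of E8.5 and 98.8% of E10.5 endothelial cells, the 7 erythroid markers in 99.1% of E8.5 EryP cells, the 5 megakaryocyte markers in 98.9% of E10.5 Mk cells and the 4 macrophage markers in 98% of Mac cells. In E8.5 Mk cells the 5 megakaryocyte markers were found in 71.9% of cells on average and the erythroid markers in 84.6%, and 29 of 37 cells led in the erythroid list. These cells held a median of 2.69% of their counts in haemoglobin genes. The E8.5 Mk values below are those of the cells in the gate, and calls that changed in the 8 cells led by megakaryocyte markers are given beside the counts. HPC and mesoderm cells carried markers of other lineages as well. Erythroid markers were found on average in 52.6% of E8.25 and 53.6% of E8.5 HPC cells, with summed means of 4562 and 3817 CPM, and endothelial markers in 83.4 and 81.4%. At E9.5 and E10.5 the erythroid list was found in 3.42 and 9.69% of HPC cells. The 6 mesoderm markers were found in 83.6% of E7.25 but 53.5% of E7.75 mesoderm cells, and the erythroid list in 5.35% and 28.7%. The part of these cells in the differences below, including those of *Hk1*, was not tested. Erythroid marker RNA was also present in every Mac cell, at 3.26 to 128.7 CPM summed over the list. Mac and E10.5 EryP cells shared a sequencing lane, and the part of this RNA in the Mac values was not tested. The summed mean of 11 dissociation and stress genes was 85.4 and 113.9 CPM in mesoderm and 104.8 to 722 CPM in the later populations, and its part in the differences from mesoderm was not tested.

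The core bound by HIF reads ACGTG or GCGTG, or CACGT or CACGC on the other strand. It was looked for from 250 bases before to 50 after the transcription start in the RefSeq promoter table (GRCm38.p6), which held 32 of the 34 genes. These letters were found in 34 of 43 windows of the listed genes in the filtered table (79.1%, 26 of 30 genes). They were also in 60.5% of 12900 windows of all genes of that table with a window and in 43.8% of all 32851 windows, whose median GC contents were 60.3% and 52.7% against 62.3% in the listed genes, so a match is a description of the letters and not a site. The *Bpgm* window held none. The stretches below show 30 bases around a match, in capitals, for genes whose mean levels differed between populations, isozyme pairs (*Hk1* and *Hk2*, *Ldha* and *Ldhb*) included. In *Hk1* matches on both strands overlap.
*Slc2a1* (chr4:119108697-119108726, plus strand): gtcccgccccggACGTGctccccaggcccc
*Hk1* (chr10:62340422-62340451, minus strand): ttggcactgtgccacCACGCGTGaccgcgc
*Hk2* (chr6:82774489-82774518, minus strand): aatgagcacatcCACGTcactgtccggggc
*Pfkp* (chr13:6648777-6648806, minus strand): cgctcgggcgggGCGTGggcggctcctgcg
*Ldha* (chr7:46845758-46845787, plus strand): cgtgggttcccgCACGTccgctgggctccc
*Ldhb* (chr6:142508066-142508095, minus strand): gcgggggagagcGCGTGcacactccagcct
*Pdk1* (chr2:71873134-71873163, plus strand): ccgcctacatggGCGTGtctttaaccaggg
*Bnip3* (chr7:138909524-138909553, minus strand): ggctccgccgccGCGTGcgtcccgccccgc

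The listed genes did not move as a block. Over the 12 populations of more than 3 cells, the means of *Ldha*, *Pkm*, *Aldoa* and *Eno1* stayed within 4-fold, whereas those of *Slc2a1*, *Slc2a3*, *Hk1*, *Hk2*, *Pfkp*, *Ldhb* and *Epas1* differed by more than 10-fold. E8.5 EryP and Mac each held the highest mean of 8 genes among these populations, and E10.5 Endo the lowest mean of 10. However, E8.5 EryP and Mac each also held the lowest mean of 6, and E10.5 Endo the highest of 5. Without the highest cell of each population, Mac lost the highest mean of *Gpi1*, *Pfkp*, *Gapdh*, *Pgam1* and *Slc16a3*. E10.5 Endo then lost that of *Aldoc*, *Eno3* and *Arnt*. No share of all genes was taken for the counts of highest and lowest means. The plot of mean levels shows these contrasts gene by gene.

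**Figure D1:**
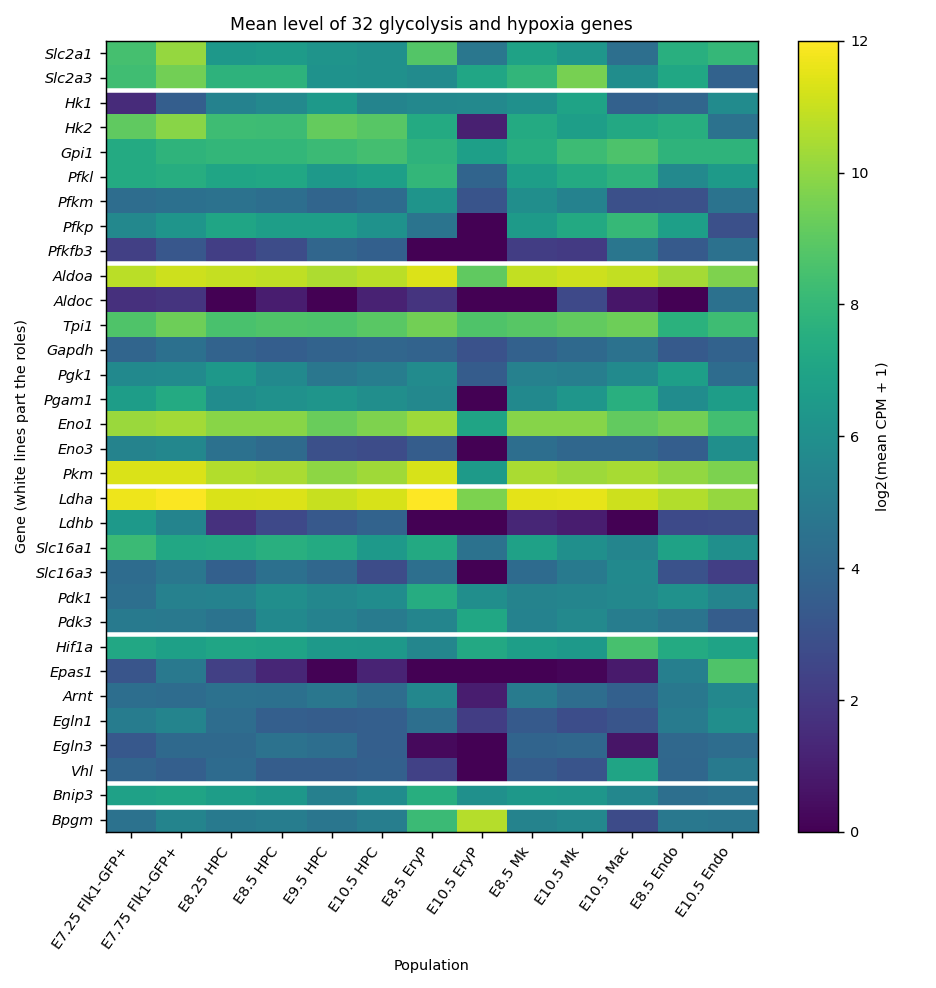
Mean level of the 32 genes in each population, as log2(mean CPM + 1) by colour, with genes in rows by role and populations in columns. The rows of *Aldoa*, *Eno1*, *Pkm* and *Ldha* are bright throughout, while *Hk1* is dark in E7.25 mesoderm (1.76 CPM), *Slc2a3* in E10.5 Endo (12.8 CPM) and *Epas1* in all blood populations.

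The glucose carriers parted by lineage. *Slc2a1*, which encodes GLUT1, the carrier of red cells and of barrier endothelium (chr4:119108711-119137983, plus strand), was highest in E7.75 mesoderm, with a mean of 1087 CPM and cells from 11.6 to 5411 CPM around a median of 668. E7.25 mesoderm had a mean of 347 CPM (0.635 to 2104, median 292), and E8.5 EryP cells 443 CPM (4.34 to 1985, median 390). The 4 HPC populations lay at 63.4 to 96 CPM, E8.5 and E10.5 Mk at 121.4 and 79.3 CPM, and Mac at 19.8 CPM with a median of 0.43. Single-cell ranges overlapped between all of these populations. Against E7.75 mesoderm the Mac mean was 52.4-fold lower on the (mean CPM + 1) scale, and lower still, by 6.80 instead of 5.71 on the log2 scale, without the highest cell of each population. E8.5 and E10.5 Endo had similar means, 191 and 257 CPM, but medians of 144.7 and 43.5 CPM: at E10.5 cells ran from 0 to 3280 CPM.

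*Slc2a3*, which encodes GLUT3, a high-affinity carrier of neurons and platelets (chr6:122727809-122801640, minus strand), was highest in E10.5 Mk. All 73 cells had a count (95% interval of the share 95.1 to 100%), with a mean of 743 CPM and cells from 14.2 to 4670 CPM around a median of 571.5. E7.75 mesoderm followed at 688 CPM (median 380) and E7.25 mesoderm at 314 CPM (median 183). HPC cells had 218 CPM at both E8.25 and E8.5 but 68.8 CPM at E9.5 and 63 CPM at E10.5. In E10.5 Endo only 8 of 61 cells had a count (13.1%, interval 5.84 to 24.2%), with a mean of 12.8 CPM, and the E10.5 Mk mean was 53.7-fold higher than it. E8.5 Endo had 140.8 CPM with a count in 68 of 79 cells (86.1%, 76.5 to 92.8%). Thinning every cell to 840000 counts left these shares at 14% of 57 and 81% of 79 cells deep enough. Per kb of exon, *Slc2a3* made up 81.9% of the pair in E10.5 Mk, 56% in E8.25 HPC, 5.57% in E8.5 EryP and 2.36% in E10.5 Endo.

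**Figure D2:**
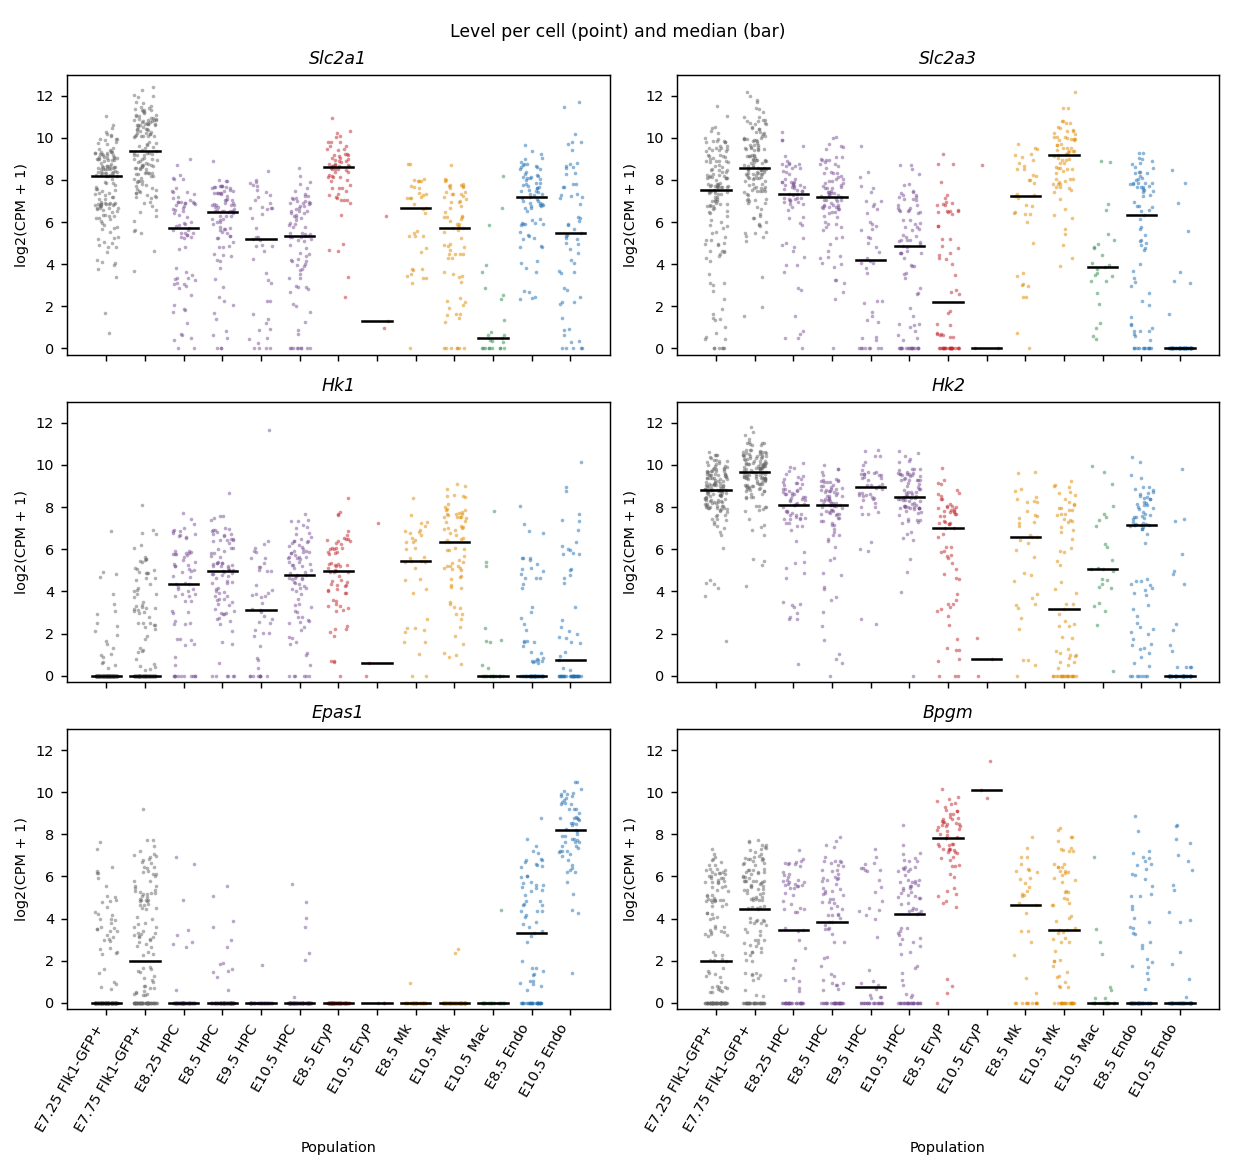
Level of 6 genes in each cell (point), as log2(CPM + 1), with the median of each population (black bar). E8.5 EryP has a higher median than E10.5 Mk for *Slc2a1* and a lower one for *Slc2a3*, *Hk1* has a median of 0 in both mesoderm stages while *Hk2* is high there, *Epas1* is at 0 in most blood cells and above 0 in every E10.5 Endo cell, and *Bpgm* stands out in EryP (285 and 1606 CPM).

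Blood populations other than Mac held more *Hk1* than mesoderm, beside *Hk2*, and E10.5 Endo also held more *Hk1*. *Hk1*, the housekeeping hexokinase bound to mitochondria (chr10:62268855-62379908, minus strand), had a count in 22 E7.25 mesoderm cells (15%, interval 9.62 to 21.8%) and a mean of 1.76 CPM. At E7.75 it had a count in 60 of 140 cells (42.9%, 34.5 to 51.5%), with 11 CPM. Blood populations other than Mac had more: 38.5 CPM in E8.25 HPC, 48.9 in E8.5 HPC, 48 in E8.5 EryP, 65 in E8.5 Mk, 42.1 in E10.5 HPC and 122.5 in E10.5 Mk, with counts in 84.9 to 100% of these cells. E8.25 HPC and E8.5 Mk were 14.3-fold and 23.9-fold above E7.25 mesoderm, and E10.5 Mk 10.3-fold above E7.75 mesoderm. The E9.5 HPC mean of 88.7 CPM rested on 1 cell at 3274 CPM and was 17.9 CPM without it. Mac cells had 12.4 CPM with a median of 0 and a count in 9 of 25 cells. E8.5 Endo had 14.4 CPM and E10.5 Endo 54.3 CPM, the latter 36.5 CPM without its highest cell.

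*Hk2*, the inducible hexokinase of muscle and fast-growing cells (chr6:82725025-82774454, minus strand), was highest in mesoderm. It was found in all mesoderm cells, with means of 528 CPM at E7.25 (2.15 to 1576, median 448) and 931 CPM at E7.75 (18.1 to 3528.5, median 815.5). HPC cells kept 302 to 570 CPM at every stage. E8.5 EryP and E8.5 Mk had 161 and 162 CPM, Mac 149.6 CPM, and E10.5 Mk 103.9 CPM with a median of only 7.99. E10.5 Endo had 22.3 CPM, with a median of 0 and a count in 15 of 61 cells (24.6%, 14.5 to 37.3%), 40-fold below E7.75 mesoderm, and 7.97 CPM without its highest cell. Per kb of exon *Hk2* made up 99.8 and 99.2% of the pair in mesoderm, 89.8 to 94.1% in the 4 HPC populations, 94.5% in Mac and 94.8% in E8.5 Endo. It made up 82.8% in E8.5 EryP, 78.1% in E8.5 Mk and 54.8% in E10.5 Mk. By mean levels per kb of exon it was thus the larger part of the pair in every blood population of more than 3 cells. In E10.5 Mk, however, the log2 ratio of *Hk2* to *Hk1* before scaling by exon length was -0.24 for means and -3.33 for medians. There 18 of 73 cells had a count of *Hk1* only and 0 of *Hk2* only. In E10.5 Endo *Hk2* made up 37%, but there the log2 ratio of mean *Hk2* to *Hk1* went from -1.28 to 0.17 with all captured cells. Within E7.75 mesoderm, *Hk1* was ranked with the erythroid marker list across single cells (Spearman's rho 0.558 over 140 cells of 2 lanes), while *Slc2a1* had -0.407, *Epas1* -0.412 and *Hk2* 0.069. These are descriptions over cells that share sequencing lanes and may share embryos, and rho with total counts was 0.106 for *Hk1* and 0.051 for *Slc2a1*.

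The phosphofructokinase subunits differed in their mixture. *Pfkl*, the liver type, had 160 and 180 CPM in mesoderm, 248 CPM in E8.5 EryP and 48.8 CPM in E8.5 Endo. *Pfkm*, the muscle type, had 18.8 and 20.5 CPM in mesoderm, 13.9 to 22 CPM in HPC, 72 CPM in E8.5 EryP (median 27) and 59.9 CPM in E8.5 Mk (median 31.5), but only 6.77 CPM in E8.5 Endo, where 5 of 79 cells had a count (6.33%, 2.09 to 14.2%). E8.5 EryP was 9.4-fold above E8.5 Endo for *Pfkm* and 5.01-fold for *Pfkl*. Without the highest cell of each population the *Pfkm* mean of E8.5 Endo was 1.97 CPM, and the log2 difference went from 3.23 to 4.41. *Pfkp*, the platelet type, went the other way in these cells, with 23.3 CPM in E8.5 EryP and 108.97 CPM in E8.5 Endo. At E10.5 *Pfkp* had 155.4 CPM in Mk (median 108.6) and 6.56 CPM in Endo (median 0). Its Mac mean of 265 CPM rested on 1 cell at 5584 CPM and was 43.9 CPM without it, which turned the log2 difference from E7.75 mesoderm from 1.80 to -0.68. Per kb, *Pfkm* made up 44.2% of the 3 subunits in E8.5 Mk, 35.6% in E8.5 EryP and 11.6% in E8.5 Endo, and *Pfkp* 46.5%, 2.88% and 2.32% in E8.5 Endo, E8.5 EryP and E10.5 Endo. *Gpi1*, which interconverts the hexose phosphates, stayed between 158.3 and 400 CPM in the 12 larger populations. Its highest mean, in Mac, was 223 CPM without the highest cell. *Pfkfb3*, which makes the main activator of phosphofructokinase, was low throughout (0.00945 to 25.6 CPM), and its E10.5 Endo mean of 21.2 CPM rested on 1 cell at 1112.5 CPM.

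**Figure D3:**
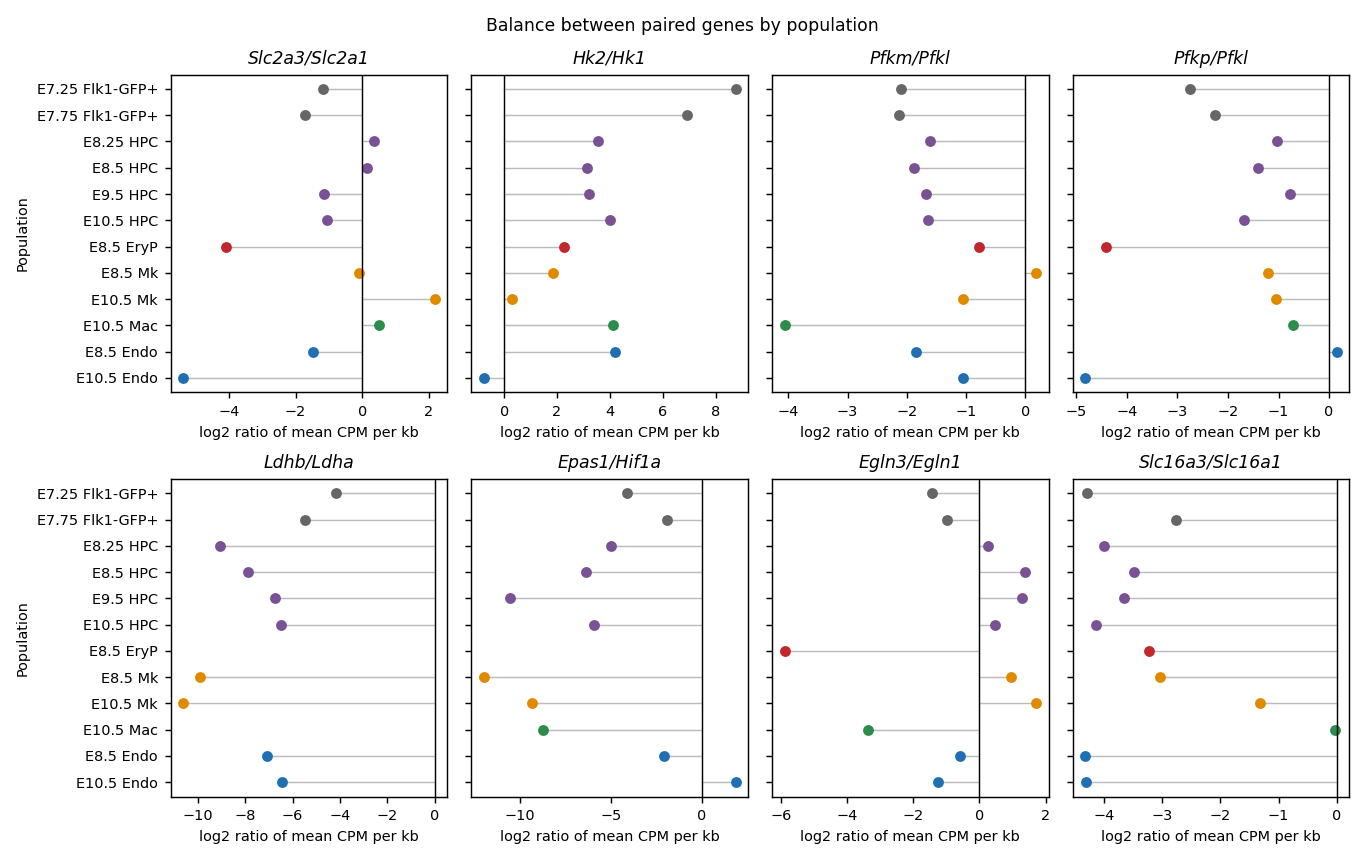
Balance of 8 gene pairs in the 12 populations of more than 3 cells, as log2 of the ratio of mean CPM per kb of exon (points; the vertical line marks equal levels, and no point is drawn where one gene had no count). *Hk2*/*Hk1* falls from E7.25 mesoderm to E10.5 Endo, a range of 9.51 on the log2 scale, and *Slc2a3*/*Slc2a1* is above 0 in E8.25 and E8.5 HPC, E10.5 Mk and Mac.

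The enzymes of the lower pathway were the abundant part of the list. *Aldoa*, the main aldolase, had 1720 CPM in E7.25 mesoderm (428 to 3405), 2625 CPM in E8.5 EryP (860 to 5482), 1338 CPM in E8.5 Endo (495 to 2316) and 822 CPM in E10.5 Endo (11.7 to 2693). *Pkm*, pyruvate kinase, had 2565 CPM in E7.25 mesoderm, 2442.5 in E8.5 EryP, 1058 in E8.5 Endo and 789 in E10.5 Endo. *Eno1*, the common enolase, had 1156.5, 1212.5, 699 and 327 CPM in the same order. *Tpi1*, which interconverts the triose phosphates, had 419, 706, 205 and 308 CPM. The lowest of the 12 larger populations was thus E10.5 Endo for *Aldoa*, *Pkm* and *Eno1* and E8.5 Endo for *Tpi1*, with single-cell ranges that overlapped the others. *Pgam1*, the mutase of the pathway, ran from 47.8 to 191 CPM over those populations. Without the highest cell of each, its Mac mean of 191 CPM was 107.6 CPM and its E10.5 Endo mean of 100.7 CPM was 57.8 CPM. *Eno3*, the muscle enolase, had 40.4 and 45.8 CPM in mesoderm and 5.81 to 21.6 CPM in blood, and 61.1 CPM in E10.5 Endo, where 1 cell at 3414 CPM carried the mean and 5.19 CPM remained without it. *Aldoc*, the brain aldolase, was below 5.5 CPM everywhere except E10.5 Endo, where the mean of 21.2 CPM was 0.123 CPM without the highest cell.

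The counts of several of these enzymes depended on how reads were shared with near-identical genes. *Gapdh*, often used as a reference gene, had only 7.22 to 22.4 CPM. It shares long stretches with many other genes, mostly processed pseudogenes, and 98.1% of the joint counts stood in those. With them added, *Gapdh* had 737 CPM in E7.25 mesoderm, 1020 in E7.75 mesoderm, 844 in E8.5 EryP, 585 in E8.5 Endo and 422 in E10.5 Endo. The share in such genes was 54.8% for *Pgam1*, 45.6% for *Gpi1*, 45.5% for *Pgk1*, 38.4% for *Eno1*, 19% for *Pkm*, 16% for *Ldhb*, 15.8% for *Bnip3* and under 5% for *Aldoa*, *Ldha* and *Tpi1*. It differed most between populations for *Pgk1*, which makes the first ATP of the pathway, from 24% in E8.5 Endo to 57.5% in E10.5 Mk. *Pgk1* was highest in E8.5 Endo (107.2 CPM against 51.3 in E7.25 mesoderm), but the log2 difference of 1.05 became 0.45 with the reads of its lookalikes added and 0.98 without the highest cell of each population. With the lookalikes its differences between E8.5 Endo and both E8.5 Mk and E8.5 HPC came under 2-fold too.

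Lactate dehydrogenase was almost wholly *Ldha*, the form that favours lactate, which ran over the larger populations from 1095 CPM in E10.5 Endo to 3850 in E7.75 mesoderm and 4014 in E8.5 EryP. *Ldhb*, the heart form (chr6:142490249-142507957, minus strand), was a mesoderm gene. It had 86.7 CPM at E7.25 with a count in 130 cells (88.4%, 82.1 to 93.1%) and 41.1 CPM at E7.75 with a count in most cells (72.1%, 63.9 to 79.4%). In E8.25 HPC it had 2.25 CPM and a count in 7 of 73 cells. No E8.5 EryP cell (0 of 66) and no Mac cell (0 of 25) had a count. By the approximate rule of 3 over the number of cells, this allows shares of up to 4.55% and 12%. With a floor of 3 counts over the group, *Ldhb* was at least 3347-fold lower in E8.5 EryP than in E7.25 mesoderm. In Mac it was at least 1226-fold lower than in E7.75 mesoderm. These bounds cover counting error of reads only, and the allowed shares of cells would permit much smaller differences. E10.5 HPC cells had 13.4 CPM with a count in 37 of 87 cells (42.5%), and the 2 Endo populations 5.5 and 5.91 CPM. Per kb *Ldhb* made up 5.23% of the pair in E7.25 mesoderm, 2.2% at E7.75 and at most 1.12% elsewhere.

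Among lactate carriers, *Slc16a1*, which encodes MCT1, was highest in E7.25 mesoderm (289.7 CPM, with a count in every cell) and had 147.2 CPM in E7.75 mesoderm, 157.01 in E8.25 HPC, 156.6 in E8.5 EryP, 87.2 in E10.5 HPC, 62 in E10.5 Mk and 42.8 in Mac. *Slc16a3*, which encodes MCT4, the exporter of glycolytic cells, had 3.72 CPM in E10.5 Endo and 29.8 CPM in E10.5 Mk, and its Mac mean of 50.4 CPM was 15.1 CPM without the highest cell. *Pdk1*, a kinase that inhibits pyruvate dehydrogenase, was highest in E8.5 EryP, with 171 CPM (0 to 1658.5, median 106.8), 8.31-fold above E7.25 mesoderm (19.7 CPM, median 0.812). E8.5 HPC and E8.5 Endo had 60 and 66.8 CPM. *Pdk3*, a related kinase, stayed between 10.6 CPM (E10.5 Endo) and 51.4 CPM (E8.5 HPC) in the larger populations.

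Among the oxygen-sensing genes *Epas1* differed most between endothelium and blood. *Epas1*, the HIF α subunit typical of endothelium (chr17:86753700-86833410, plus strand), had a count in 61 of 61 E10.5 Endo cells (94.1 to 100%), with a mean of 418 CPM and cells from 1.66 to 1445 CPM around a median of 299. E8.5 Endo had 35.5 CPM (0 to 434, median 8.9) with a count in 54 of 79 cells (68.4%, 56.9 to 78.4%). E7.75 mesoderm had 28.2 CPM with a count in 90 of 140 cells (64.3%) and E7.25 mesoderm 7.96 CPM in 43 cells (29.3%). All blood populations had means under 4 CPM. No E8.5 EryP cell had a count (0 of 66). With a floor of 3 counts over the group this put it at least 1371-fold below E8.5 Endo, for counting error of reads only. *Hif1a*, the broadly expressed subunit, was far more even, at 82.2 to 160 CPM in mesoderm, HPC, Mk and Endo, with 44.5 CPM in E8.5 EryP (median 8.39). Its Mac mean of 357 CPM was 185 CPM without the highest cell, under a 2-fold difference from E7.75 mesoderm. Per kb, *Epas1* made up 78.3% of the 2 α subunits in E10.5 Endo, 19% in E8.5 Endo, 20.8% in E7.75 mesoderm and under 3% in all blood populations. *Arnt*, their shared partner, ran from 12 CPM in Mac to 48.1 CPM in E10.5 Endo. Without the highest cell of each population the E10.5 Endo mean was 33.8 CPM, below 39.3 CPM in E8.5 EryP. With medians over cells the *Arnt* log2 difference of E10.5 Endo from E7.75 mesoderm turned from 1.37 to -0.63. The lower *Arnt* values of E10.5 Mk, HPC and Mac against E10.5 Endo also reversed with medians (0.049, 1.64 and 0.21).

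The 2 prolyl hydroxylases of the list were distributed unlike each other. *Egln1*, the main one, had 32.3 and 42.3 CPM in mesoderm and 31.1 and 60.3 CPM in Endo, against 6.22 CPM in E10.5 Mk, where 5 of 73 cells had a count (6.85%, 2.26 to 15.3%), and 10.8 to 18.6 CPM in HPC. *Egln3*, which is itself induced by HIF, lay between 8.95 and 22 CPM in mesoderm, HPC, Mk and Endo and was nearly missing in E8.5 EryP (1 of 66 cells with a count) and Mac (3 of 25 cells). *Vhl* was under 30 CPM in all populations but Mac, whose mean of 128.3 CPM stood beside a median of 0.16 and was 23.2 CPM without 1 cell at 2651 CPM. *Bnip3*, a HIF target that marks mitochondria for removal, was highest in E8.5 EryP with 184 CPM (0 to 825, median 140) and had 114.7 and 126.9 CPM in mesoderm but 19.7 CPM in E8.5 Endo and 22.4 CPM in E10.5 Endo, where the medians were 0. E8.5 EryP was 8.93-fold above E8.5 Endo.

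*Bpgm* (chr6:34476207-34505613, plus strand) makes 2,3-bisphosphoglycerate, which lowers the oxygen affinity of haemoglobin, in a side branch of glycolysis found in red cells. E8.5 EryP had a mean of 285 CPM, with cells from 0 to 1126 CPM around a median of 229 and a count in 65 of 66 cells (91.8 to 100%), 12.5-fold above E7.25 mesoderm. The 3 E10.5 EryP cells had 838, 1090 and 2890 CPM beside a highest E8.5 cell of 1126 CPM, though 22 of 25 captured cells of this gate did not pass the filter. Outside EryP the mean lay between 5.78 CPM in Mac and 46.8 CPM in E10.5 Mk. In the same 3 cells *Hk2* had 1.07 CPM and *Pkm* was found in 1 cell, while 35.5% of their counts (median) stood in haemoglobin genes.

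**Figure D4:**
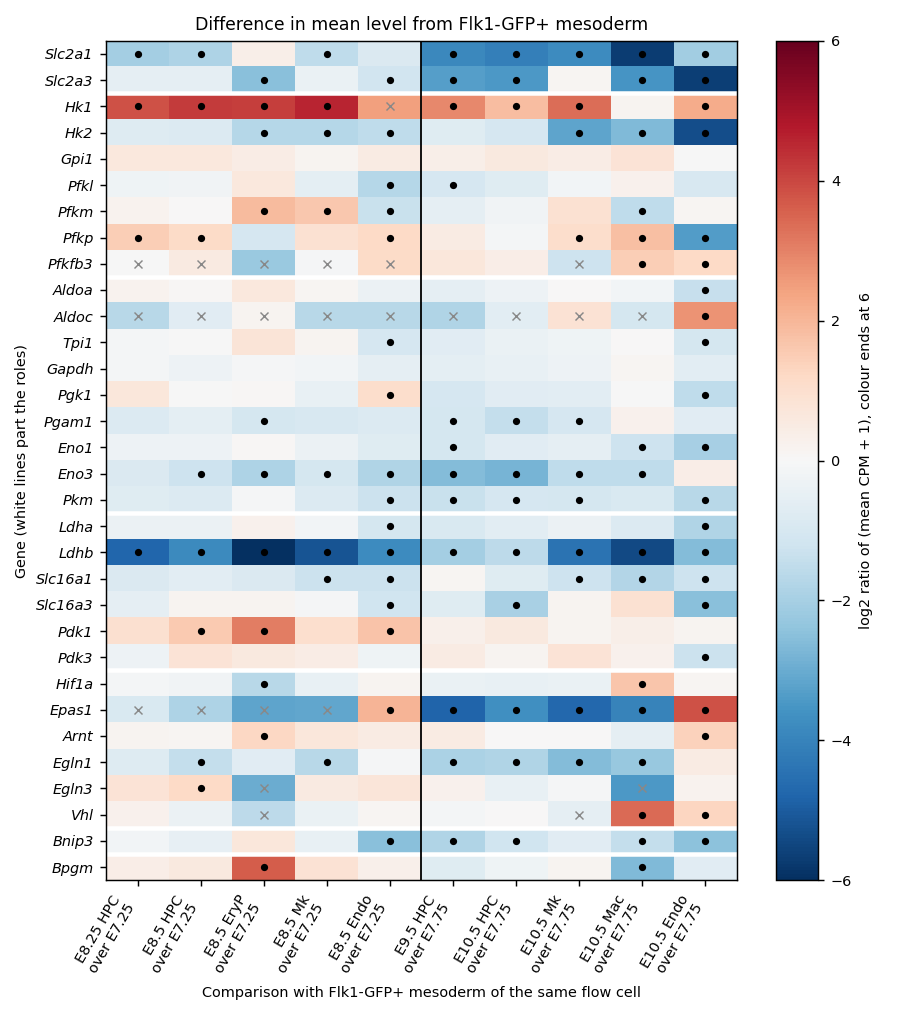
Difference of each population from the mesoderm of its own flow cell, as the log2 ratio of (mean CPM + 1) by colour (red higher, blue lower), for the 32 genes and 10 comparisons. Dots mark differences of 2-fold or more, crosses genes under 10 CPM on average over both groups, and the E10.5 EryP cells are not drawn. *Hk1* is red in all columns but Mac and *Ldhb* blue in all of them.

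The counts of genes past 2-fold put these values beside all genes. Differences were counted where both group means averaged 10 CPM or more. The shares of all genes are those of the full populations. None is given for the 8 E8.5 Mk cells or for counts without the highest cells, so those counts have no such measure beside them. In E8.25 HPC, 2 of 29 listed genes were higher than in E7.25 mesoderm and 2 lower, beside 11.6% and 8.91% of all genes that passed the filter (20.5% in either direction). E8.5 HPC had 4 higher and 4 lower, beside 11.6% and 9.28% of all genes (20.9%). E8.5 EryP had 5 higher and 6 lower of 27, beside 13% and 16.9% (29.9%). E8.5 Mk had 2 higher and 6 lower, beside 13.8% and 14% (27.8%), and 13 instead of 8 were past 2-fold in its 8 cells led by megakaryocyte markers. There *Slc16a3* and *Bpgm* also counted as higher, *Pfkl*, *Pkm*, *Arnt* and *Bnip3* also as lower, and *Eno3* no longer counted. E8.5 Endo had 4 higher and 12 lower of 29, beside 18.9% and 11.4% (30.3%). The lower genes of E8.5 Endo, 55.2% of the listed genes together with the higher ones, included *Ldha*, *Pkm*, *Tpi1*, *Hk2* and *Bnip3*.

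Against E7.75 mesoderm, E9.5 HPC had 1 of 31 listed genes higher (*Hk1*) and 11 lower, beside 15.1% and 12.6% of all genes (27.7%). Without the highest cell of each population none was higher, as the *Hk1* log2 difference was 0.91. E10.5 HPC also had *Hk1* alone higher and 10 lower, beside 12.6% and 12.4% (25%). E10.5 Mk had 2 higher and 9 lower of 29, beside 18.9% and 15.6% (34.5%). In Mac 4 were higher and 12 lower of 30, beside 25.2% and 27.5% (52.8%), a share of 53.3% that was close to that of all genes. Without the highest cells *Vhl* alone counted as higher, since *Pfkp* reversed, *Hif1a* fell under 2-fold and *Pfkfb3* under the filter. E10.5 Endo had 6 higher and 15 lower of 32, beside 27.9% and 18.7% (46.7%), or 65.6% of the listed genes, and 4 higher and 19 lower without the highest cells. The 3 E10.5 EryP cells had 3 higher and 20 lower of 27, beside 19.9% and 46.9% (66.8%). Of the higher genes, *Hk1* and *Pdk3* reversed without the highest cells (-3.02 and -4.75), which left *Bpgm*. The median log2 difference of the listed genes was -0.72 in E8.5 Endo and -0.81 in E10.5 Endo, where the median of all genes was -0.01 and 0.10.

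Set against endothelium of the same day, blood was higher for more listed genes than it was lower. At E8.5, EryP had 11 higher and 4 lower of 27, beside 18.2% and 24.4% of all genes (42.6%). Mk had 6 higher and 3 lower of 29, beside 14.7% and 21% (35.7%), and HPC 7 and 3, beside 9.27% and 16% (25.3%). *Hk1*, *Pfkl*, *Pfkm*, *Tpi1*, *Slc16a3* and *Bnip3* were higher in each of the 3 populations and *Epas1* lower, though these counts share the same Endo cells. Without the highest cells *Slc16a3* was at 0.91 in Mk, and *Pfkm* in HPC came under the filter. In the 8 E8.5 Mk cells led by megakaryocyte markers the log2 differences of *Pfkl* and *Bnip3* from Endo were 0.37 and 0.96 and that of *Pgk1* was -0.67. *Slc2a3* (400.3 against 140.8 CPM) and *Eno3* (1.36 on the log2 scale) then counted as higher and *Slc2a1* (-1.04), *Pdk1* (-2.38) and *Arnt* (-2.52) as lower. At E10.5, Mk had 10 higher and 8 lower of 31, beside 21.1% and 27.2% (48.3%). HPC had 8 and 7 of 30, beside 19% and 28.8% (47.8%), and Mac 12 and 9 of 30, beside 23.4% and 33% (56.4%). Leaving out the highest cell of each population gave 15 higher and 5 lower in Mk, 11 and 3 in HPC and 7 and 6 in Mac. The lower *Eno3* and *Aldoc* values of all 3 populations, against an Endo mean that 1 cell carried, were no longer counted.

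With stage, each lineage had its own short list, and stage and flow cell cannot be told apart here. The sort gates of HPC, Mk and Endo also changed between E8.5 and E10.5, which cannot be told apart from stage either. From E7.25 to E7.75 mesoderm *Slc2a1* (3.13-fold), *Slc2a3* (2.19-fold) and *Epas1* (3.26-fold) were higher and *Ldhb* 2.08-fold lower, beside 3.78% of all genes higher and 4.78% lower (8.56%). The 2 lanes of each stage gave the only view of repeat error. *Slc2a1* had 287 and 406 CPM in the E7.25 lanes and 1303 and 955 CPM in the E7.75 lanes, and *Hk2* 502 and 554 CPM against 1060 and 853 CPM. Between lanes of the same stage, 0 of 27 genes at E7.25 (4.93% of all genes) and 1 of 31 at E7.75 (6.39%), *Pfkfb3*, were past 2-fold. The median absolute log2 differences were 0.24 and 0.37. At E7.75 all glycolytic enzyme genes but *Ldhb* and *Aldoc* were lower in lane 8 than in lane 7, such as *Pkm* (-0.51 on the log2 scale) and *Ldha* (-0.39). The count between the mesoderm stages without lane 8 is given below. From E8.5 to E10.5 Endo, 6 genes were higher and 6 lower, beside 19.3% and 14.9% of all genes (34.1%). *Slc2a3* was 10.2-fold, *Pfkp* 14.5-fold and *Hk2* 7.9-fold lower and *Epas1* 11.5-fold higher. Without the highest cells the log2 differences of *Slc2a3* and *Hk2* went from -3.36 to -4.07 and from -2.98 to -4.24. The higher genes were then 3, *Hk1*, *Epas1* and *Vhl*, as *Pfkfb3* and *Eno3* reversed, *Aldoc* was at 0.17 and *Pfkm* came under the filter. In Mk, *Slc2a3* alone passed 2-fold, 3.15-fold higher at E10.5, beside 14.6% of all genes higher and 11.4% lower (25.9%), and *Hk1* joined it without the highest cells (1.01). With the 8 E8.5 cells led by megakaryocyte markers its log2 difference was 0.89 instead of 1.66, and 5 other genes were past 2-fold: *Pfkl* (1.34), *Pfkp* (1.37), *Pdk1* (1.74) and *Arnt* (2.01) were higher at E10.5 and *Hk2* (-1.06) lower. In HPC, *Slc2a3*, *Eno3*, *Slc16a1* and *Slc16a3* were lower at E10.5 and none higher, beside 10.7% and 7.47% of all genes (18.2%).

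The summed counts of the 17 measured glycolytic enzymes gave each cell's share of RNA in the pathway. The median was 1.07% of a cell's counts in E7.25 mesoderm and 1.30% at E7.75, where the lanes had 1.47 and 1.17%. HPC populations had 0.817 to 0.889%, E8.5 EryP 1.02%, E8.5 Mk 0.778%, E10.5 Mk 0.942% and Mac 0.699%. E8.5 Endo had 0.532% (cells from 0.203 to 0.888%) and E10.5 Endo 0.341% (0.0112 to 0.825%). The upper quartile of E8.5 Endo, 0.607%, lay below the lower quartile of both mesoderm stages, E8.5 EryP, all HPC populations but E9.5, and both Mk populations. The 4 leading genes held 77 to 86.9% of the sum. They were *Ldha*, *Pkm*, *Aldoa* and *Eno1*, except that *Tpi1* took the place of *Eno1* in E10.5 Endo and of *Pkm* in E10.5 EryP. Adding the lookalike genes raised every median, to 1.61% in E7.75 mesoderm, 0.698% in E8.5 Endo and 0.441% in E10.5 Endo, and left this order of mesoderm over Endo.

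**Figure D5:**
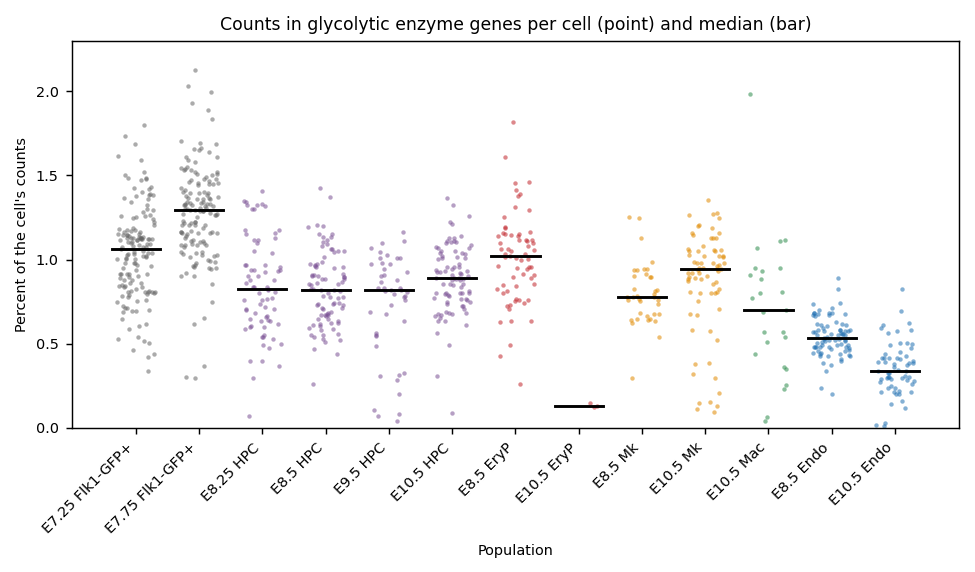
Percent of each cell's counts in the glycolytic enzyme genes (points) with the median of each population (bars). Mesoderm medians are 1.07 and 1.30%, those of E8.5 and E10.5 Endo 0.532 and 0.341%, and the 3 E10.5 EryP cells sit at 0.122 to 0.149%.

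Of 55 further genes of these pathways, 48 were in the filtered tables. The share past 2-fold lay near that of all genes in E8.5 EryP (6 higher and 4 lower of 29, or 34.5% beside 29.9%) and in E8.5 Endo (5 and 4 of 27, or 33.3% beside 30.3%) over E7.25 mesoderm. Over E7.75 mesoderm it was 41.9% beside 46.7% in E10.5 Endo and 77.4% beside 52.8% in Mac, and between the mesoderm stages 0 of 27 genes beside 8.56%. Over the 21 comparisons it ran from 0 to 82.8%. The highest share was that of the 3 E10.5 EryP cells over E7.75 mesoderm, beside 66.8% of all genes. *Pfkfb4*, a second maker of the phosphofructokinase activator, had 169 CPM in E8.5 EryP (a count in 97% of cells) against 12.7 CPM in E7.25 mesoderm and 1.12 CPM in E8.5 Endo, while *Pfkfb3* had a count in 1 E8.5 EryP cell. *Plin2*, a lipid droplet coat gene induced by hypoxia, had 556 CPM in E8.5 EryP against 44.2 CPM in E7.25 mesoderm. *Tkt*, transketolase of the pentose phosphate branch, had 9.13 CPM in E10.5 Endo against 63.7 CPM in E7.75 mesoderm and 88.3 CPM in E10.5 HPC. *Hif1an*, which hydroxylates HIF, had 69.2 CPM in E10.5 Endo against 14 CPM in E7.75 mesoderm, but with a median of 0 and 1 cell at 3038 CPM. *P4ha1*, a collagen prolyl hydroxylase, was highest in Endo (172 and 195 CPM). *Fbp2*, the muscle fructose bisphosphatase, had 94.2 CPM in E9.5 HPC with a median of 0.979 and no count in E7.75 mesoderm, EryP, Mk or Mac.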

How the data were processed

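Single-cell libraries (Nextera XT, paired-end reads of 100 bases) were mapped by the authors to the GRCm38 build (Ensembl release 84) using Rsubread, and featureCounts gave the reads per gene, per the labels and the study's methods. The deposited count tables held raw counts of 1073 captured cells over 47643 genes and of 926 filtered cells over 15967 genes. The third deposited table held a signal that the authors call CPM, made with scran size factors; each column was its counts times 1 factor, and columns summed to 699615 to 4176740, so columns do not share 1 total. No read was realigned, and no column of another series was used. Mean CPM over cells was compared as log2((mean + 1)/(mean + 1)), and a difference was counted from 2-fold upwards where both means averaged 10 CPM or more. Because a population is 1 sample, no test was run. Shares of cells carry exact Clopper-Pearson 95% intervals; reads are not molecules, so intervals and floors cover counting error only. The depth of each cell limits the precision of shares, which were also taken after thinning to 840000 counts. Exon lengths came from GENCODE M21 on the same build. Lookalike genes shared 100 or more 31-base words with a listed gene and 5% or more of their own longest transcript. Listed genes are all accounted for. Of those past 4-fold with 20 CPM or more in one population, the range, median or share of cells is given for some genes and populations only, and means otherwise. Further genes past 4-fold with 50 CPM or more were open to naming, of which a selection is given. Members and lists were chosen with earlier results of these data known. Scripts were tested on simulated data and run with Python 3.11.15, numpy 2.4.6, pandas 2.3.3 and SciPy 1.17.1.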

Additional observations from a re-analysis of the deposited data

Results flagged for a closer look

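3 stage differences ran in opposite directions in pairs of lineages, and none of these differences was tested, since each population is 1 sample. *Slc2a3* differed between Mk and Endo by 5.01 on the log2 scale in its E10.5 over E8.5 ratio, being higher at E10.5 in Mk (1.66) and lower in Endo (-3.36). Against HPC, where the ratio was -1.78, the Mk ratio differed by 3.43. In the 8 E8.5 Mk cells not led by erythroid markers the Mk ratio was 0.89, the same direction but under 2-fold. *Eno3* differed between Endo and HPC by 3.76, with a ratio of 2.38 in Endo and -1.37 in HPC, but 1 E10.5 Endo cell carried the Endo value, which was -0.61 without the highest cell of each population.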

How the results depend on the processing

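Stability differed by setting. With medians over cells 83 of 250 single log2 ratios stayed within 1.5-fold, 159 moved further and 8 reversed. With a pseudocount of 10 CPM 173 stayed and 77 moved, with all captured cells 196 stayed, 52 moved and 2 reversed, and with plain counts 226 stayed. Without the highest cell of each population 180 stayed, 60 moved and 10 reversed, and with lookalike genes 246 stayed; both were chosen after seeing the data. Filters cannot change a ratio of means and are given for the counts of genes only. Of 194 counts of genes past 2-fold under the settings chosen at the outset, 164 stayed within 1.5 times the reported count. No paired analysis was possible because no test was run and the labels give the cells no shared replicate.

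A filter of 50 CPM gave 2 genes past 2-fold in E8.25 HPC, 2 in E8.5 HPC, 6 in E8.5 EryP, 3 in E8.5 Mk and 10 in E8.5 Endo over E7.25 mesoderm. Over E7.75 mesoderm it gave 7 in E9.5 HPC, 5 in E10.5 HPC, 7 in E10.5 Mk, 9 in Mac, 11 in E10.5 Endo and 13 in E10.5 EryP. Over Endo of the same day it gave 4 for E8.5 Mk and HPC, 10 for E10.5 Mk, 6 for E10.5 HPC and 9 for Mac, and between stages 6 in Endo and 2 in HPC. These counts fall because fewer genes were tested. With medians over cells the counts were 10 in E8.25 HPC and 15 in E8.5 Mk over E7.25 mesoderm, 13 for Mac over Endo, 8 between the mesoderm stages and 8 between the Mk stages. A pseudocount of 10 CPM gave 5 for E8.5 HPC over mesoderm, 4 for E8.5 HPC over Endo and 2 between the HPC stages, and no filter 2 between the Mk stages. Without E8.5 Mk cells led by erythroid markers there were 13 over mesoderm and 5 between the Mk stages. Without lane 8 of E7.75 there were 9 between the mesoderm stages instead of 4, and without the highest cell 13 for Mac over Endo and 2 between the Mk stages.

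The range of the log2 balance over populations moved with summed raw counts to 8.88 for *Hk2*/*Hk1*, 3.05 for *Pfkm*/*Pfkl*, 4.27 for *Pfkp*/*Pfkl*, 5.53 for *Aldoc*/*Aldoa*, 2.43 for *Eno3*/*Eno1*, 7.37 for *Ldhb*/*Ldha* and 3.40 for *Slc16a3*/*Slc16a1*. With all captured cells it was 8.12 for *Hk2*/*Hk1*, 3.57 for *Pfkm*/*Pfkl*, 3.67 for *Eno3*/*Eno1*, 3.59 for *Slc16a3*/*Slc16a1* and 14.6 for *Epas1*/*Hif1a*, and with medians 0.74 for *Slc16a3*/*Slc16a1* and 9.41 for *Pdk3*/*Pdk1*. The enzyme share of E10.5 EryP became 0.201% without haemoglobin counts and 0.201% with lookalikes.

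Reversals with medians over cells were *Pfkp* in Mac (-3.45), *Arnt* in E10.5 Endo (-0.63), *Pfkm* (0.35) and *Pdk3* (-3.39) in E10.5 EryP, all over E7.75 mesoderm, and over E10.5 Endo *Slc2a1* (0.23) and *Arnt* (0.049) in Mk and *Arnt* in HPC (1.64) and Mac (0.21). With all captured cells *Pfkfb3* in E10.5 Endo (-0.030) and *Pdk3* in E10.5 EryP (-1.15) reversed. Without the highest cell the reversals over E7.75 mesoderm were *Pfkp* in Mac (-0.68), *Pfkfb3* (-0.54) and *Aldoc* (-1.24) in E10.5 Endo, and *Hk1* (-3.02) and *Pdk3* (-4.75) in E10.5 EryP. Over E10.5 Endo they were *Aldoc* (0.52) and *Eno3* (1.27) in Mk and *Aldoc* in HPC (0.53), and between the Endo stages *Pfkfb3* (-0.66) and *Eno3* (-0.61). The cause was not tested, beyond the single cells left out.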

Other observations

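Cells that did not pass the authors' filter gave values of their own. In the 16 failed E10.5 Mac captures *Slc2a3* had a mean of 1229 plain CPM, with a median of 1.38, against 54.7 in the 25 cells that passed, and *Hif1a* had 27.5 against 245. In the 18 failed E8.5 EryP captures *Ldha* had 313 against 3383 and *Pdk1* 0.561 against 144.6. Plain CPM is a share of each cell's own total and was used because the scaled table held filtered cells only.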
